A study of Mus musculus with 5 samples.

Results

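Activated CCR7+ dendritic cells (DCs) of CT26 tumours are the 112 cells that the authors' deposited annotation names actDC, among 8987 annotated CD45+ cells of 1 library. They made up 1.25% of those cells (exact binomial 95% interval 1.03 to 1.5), 7.13% of the 1571 cells of all DC classes and 11.9% of the 940 conventional DCs (9.91 to 14.2), a class that here holds cDC1, cDC2 and actDC. CT26 is a mouse colon carcinoma line. The line was injected under the skin of BALB/c mice, tumours were taken on day 12, live CD45+ cells were sorted, and 25000 cells were loaded on a 10x Genomics 3' v3 run. The treatment label of the library is empty, and its names in the annotation call it vehicle. The series used here also holds 3 libraries of CD45+ cells from 5555 melanomas, grown for 4 days in C57BL/6 mice. Those tumours were Ptgs+/+, Ptgs-/-, or Ptgs-/- in mice depleted of NK cells, and the annotation calls their CCR7+ DCs cDC3. A further library pools 3 hashtagged cultures of bone marrow DCs from C57BL/6 mice, grown with FLT3L and GM-CSF and harvested on day 10: untreated, with Ptgs+/+ or with Ptgs-/- 5555 cells, whose CCR7+ DCs are called mDC. In all, 31617 annotated cells of the series were used.

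Dendritic cells take up material in tissues, carry it to lymph nodes and show it to T cells as peptides on MHC molecules. On activation they switch on the chemokine receptor CCR7, which guides them along CCL19 and CCL21 into lymphatic vessels, and the actin-bundling protein fascin (Fscn1), which shapes their long dendrites. Activated DCs of this kind are also called mature regulatory DCs or migratory DCs, since they carry co-stimulatory molecules, cytokines such as IL-12 and inhibitory ligands such as PD-L1 together.

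Each class is 1 group of cells from 1 library, so none of the differences below has a replicate check and none was tested. The classes were made by clustering the same cells, so the genes that set actDCs apart are given as a description of the class and support nothing further. Levels are means over the cells of a class in CPM, the counts of unique molecular identifiers (UMIs) scaled to the same total in every cell. A difference is the ratio of mean CPM plus 5, given as a fold or as its log2, and a gene was called higher or lower when it passed 2-fold. Intervals cover counting error only. The actDCs held 524398 UMIs in all, with a median of 4541.5 per cell (1244 to 9310), against medians of 6871 in 351 cDC1, 5909 in 477 cDC2, 1705 in 767 T cells and 2240.5 in 1346 NK cells. They shared no cell barcode with the other matrices.

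The fixed markers of the class were highest in actDCs among the CT26 classes, which describes the class and is no independent check of its name. Ccr7 stood at 2251 CPM (1195 UMIs, exact Poisson interval 1128 to 1265) against 17.51 CPM in cDC1 and 89.39 CPM in cDC2, the class with the next highest level. As a share of all UMIs of the class, Ccr7 was 114 times that of cDC1 (exact conditional interval 86 to 155) and 21.9 times that of cDC2 (19.3 to 25). Fscn1 stood at 1406 CPM against 2.735 in cDC1 and 10.32 in cDC2, with UMI ratios of 375 (197 to 824) and 86.2 (63.7 to 119). A Ccr7 UMI was found in 97.3% of actDCs and a Fscn1 UMI in 83.0%. In T cells, which were sequenced less deeply, the shares were 5.74% and 0.652%. After every cell was thinned to 2000 UMIs, which kept 110 of the 112 actDCs, the shares in actDCs were 87.3% and 72.7%. Both UMIs together were found in 91 actDCs (81.2%, 72.8 to 88) and in 16 other cells: 7 cDC2, 5 TAM 2 cells (a class of tumour macrophages) and 1 each in 4 other classes. Put the other way, 85.0% of the 107 cells with both UMIs carried the actDC name (76.9 to 91.2).

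The other fixed markers are secreted proteins. Ccl22, a chemokine that attracts CCR4+ T cells, stood at 1849 CPM against 24.32 in cDC1 and 35.24 in cDC2, and was found in 86.6% of actDCs and in 0.522% of T cells. Il12b, the p40 subunit shared by IL-12 and IL-23, stood at 778.4 CPM against 6.391 in cDC1 and 21.24 in cDC2. Its UMIs were found in 49.1% of actDCs, 0.13% of T cells and 0.0743% of NK cells. Ccl5, which attracts T cells, was the only one of these markers shared with another class at a like level: 11316 CPM in actDCs and 7479 CPM in NK cells, against 86.39 in cDC1 and 355.9 in cDC2. The 5 markers summed to 17600 CPM in actDCs, 137.4 in cDC1 and 512.1 in cDC2.

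**Figure D1:**
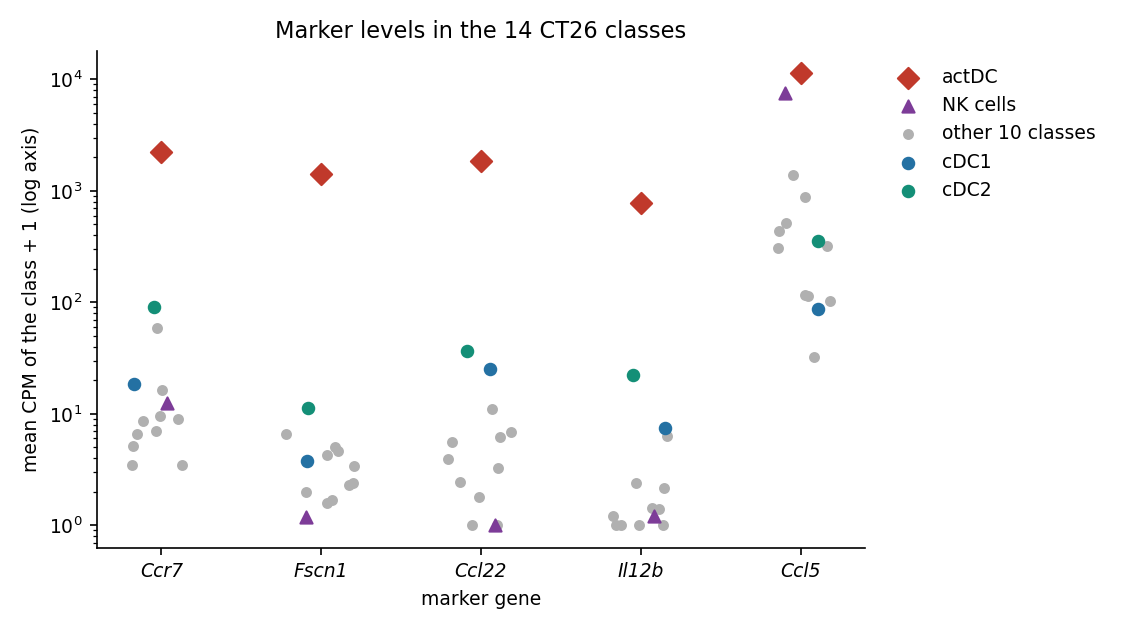
Mean level of the 5 markers (CPM + 1, log axis) in each of the 14 CT26 classes of 1 library. The actDCs are the highest class for all 5, and NK cells come next for Ccl5 (7479 against 11316 CPM).

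Markers of other cell types were low in the actDCs. Cd3d and Trac (T cells), Klrb1c and Klra8 (NK cells), Cd79a, Cd79b and Ms4a1 (B cells) and S100a8, S100a9, Csf3r and Retnlg (neutrophils) had no UMI in any actDC. The summed macrophage list stood at 269 CPM, within the range of the other classes (114.7 to 11607), and the monocyte list at 819.8 CPM, below every other class (from 1022). A UMI of C1qa, Cd3e, Cd79a, Ncr1 or S100a8, genes of macrophages, T, B and NK cells and neutrophils, was found in 9 actDCs. UMIs of the full lists were more common. The median actDC held 155.4 CPM of the macrophage list and 266.8 CPM of the monocyte list. It held 0 CPM of the NK list, but the highest actDC held 3391 CPM. No actDC was among the 5% of CT26 cells with the most genes, a cut taken over all classes together. It was filled by TAM 2 (291 cells), TAM 1 (89), cDC1 (42), proliferating cells (15) and cDC2 (12). The median actDC held 1500 genes and the median TAM 2 cell 2600, so the cut cannot show whether actDCs hold doublets.

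With mean CPM, more genes were lower than higher in actDCs, counting those found in 5% or more of the cells of either class. Against cDC1, 1003 of 8066 genes were higher (12.4%) and 2078 lower (25.8%). Against cDC2, 847 of 7689 were higher (11.0%) and 2024 lower (26.3%). Against moDC, the monocyte-derived DCs, 891 of 6286 were higher (14.2%) and 1659 lower (26.4%). The moDC direction turned when per-cell log2(CPM + 1) values were averaged, with 1766 genes higher and 317 lower. The moDCs were the shallowest class, with a median of 1514 UMIs. Against the mean of the 13 other classes 765 of 9912 were higher (7.72%) and 3000 lower (30.3%). The median gene was lower by 0.34 against cDC1, 0.36 against cDC2, 0.31 against moDC and 0.56 against the other classes on the log2 scale. In the same order, 32.6%, 29.5%, 34.9% and 20.3% of calls were higher. Taken relative to the median gene, which brings the balance near even by construction, the shares were 51.9%, 50.4%, 50.2% and 51.0%.

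The 15 genes with the highest fold over the mean of the other classes, which the clustering itself selects for, were Fscn1, Ccl22, Il12b, Cacnb3, Ccr7, Tbc1d4, Il4i1, Nudt17, Ramp3, Strip2, Ccl17, Adcy6, Serpinb6b, H2-M2 and Zmynd15. Cacnb3, a subunit of voltage-gated calcium channels, stood at 770.6 CPM and was the most selective non-marker at 98.8-fold. Tbc1d4, a Rab GTPase-activating protein known for its part in glucose transporter traffic, stood at 2011 CPM in 99.1% of actDCs, against 120.4 in cDC1 and 62.09 in cDC2. Ramp3, which partners receptors for calcitonin-family peptides, stood at 941.7 CPM against 13.83 and 58.43. Nudt17, a nudix hydrolase, had 95 UMIs in actDCs and none in cDC1, so its share of UMIs was at least 151-fold higher (against 3 UMIs over all cDC1).

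Genes of DC function were read from 23 lists chosen with earlier results of these data known. Of their 259 members seen in both comparisons, 70 were higher in actDCs than in both cDC1 and cDC2 and 36 were lower than in both. Over all 7362 genes seen in both, 9.45% were higher than both and 18.7% lower than both. Against each class alone, the shares over all genes were 12.4% higher and 25.8% lower for cDC1, and 11.0% and 26.3% for cDC2. List counts near these shares are no result about the list.

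**Figure D2:**
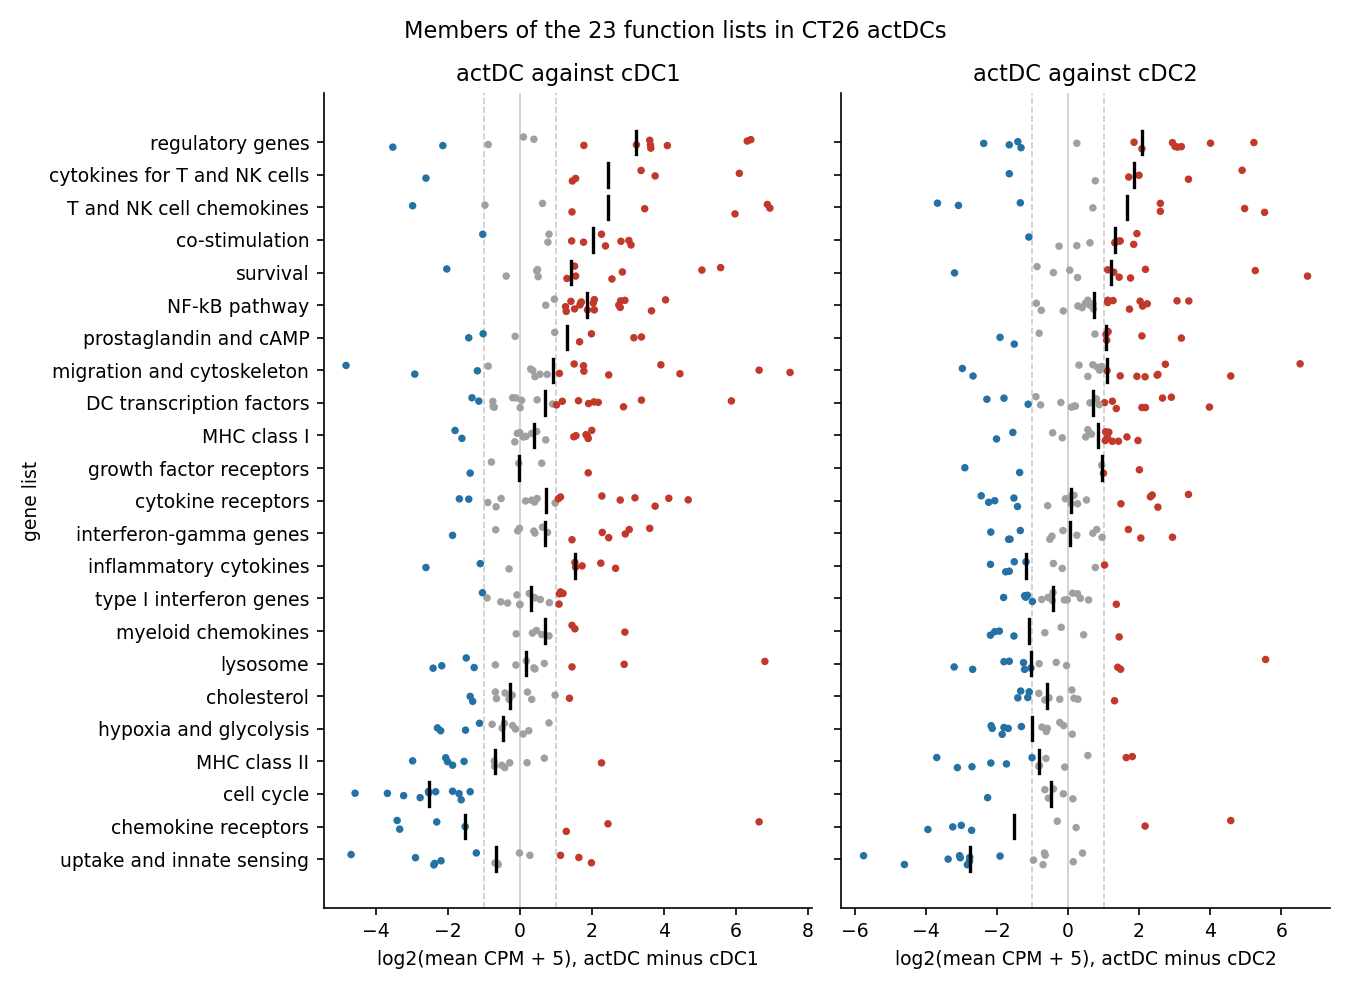
Log2 fold of actDC over cDC1 and over cDC2 for the members of each function list (points, red or blue past 2-fold at the dashed lines) with the list median (black bar). NF-kB, survival, regulatory and co-stimulation genes have medians above 0 on both sides, and cell cycle, uptake and glycolysis genes below.

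Migration and cytoskeleton genes were higher as a list, with exceptions. Of 17 such genes, 8 were higher than in both conventional DC classes and 2 were lower, against 9.45% and 18.7% of all genes. The list medians were 0.93 against cDC1 and 1.10 against cDC2 on the log2 scale, where those of all genes were -0.34 and -0.36. Marcksl1, an actin-binding substrate of protein kinase C, stood at 1029 CPM against 63.48 in cDC1 and 176.8 in cDC2. Anxa3, a membrane-binding annexin, stood at 166.8 CPM against 2.835 and 20.64, and Myo1g, a haematopoietic class I myosin, at 734.7 CPM against 128.4 and 158.9. St8sia4, which makes the polysialic acid that CCR7+ cells use to sense CCL21, stood at 597.9 CPM against 206.6 and 152.4, but was higher still in plasmacytoid DCs (pDCs, 917 CPM). Itgb7, an integrin chain, went the other way, at 26.05 CPM against 230.1 and 238.7. Of the chemokine receptors, 3 of 7 were higher and 4 lower than in cDC1, and 2 of 8 higher and 4 lower than in cDC2. Among them Ccr2, which draws monocytes and DC precursors into inflamed tissue, stood at 47.5 CPM against 526.4 in cDC1 and 798.2 in cDC2.

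The chemokines made by actDCs were mostly those that draw lymphocytes. Of 8 chemokines for T and NK cells, 5 were higher and 1 lower than in cDC1, and 4 higher and 3 lower than in cDC2. Cxcl16, the ligand of CXCR6, stood at 870.8 CPM against 74.1 in cDC1 and 139 in cDC2, and was found in 90.2% of actDCs. Ccl17, which shares the receptor CCR4 with Ccl22, stood at 618.1 CPM against 97.45 in cDC2, while cDC1 held 1 UMI in all. Ccl4, an inflammatory chemokine, was the largest exception, at 47.7 CPM against 409.8 and 663.8. Cxcl10, a ligand of CXCR3, stood between the conventional classes (248.8 CPM, against 88.12 in cDC1 and 637.7 in cDC2). Its call against cDC1 was lost when per-cell log2 values were averaged, and that against cDC2 when folds were centred. Chemokines for myeloid cells were not shifted the same way: 3 of 8 were higher and none lower than in cDC1, and 1 of 8 higher and 4 lower than in cDC2. In that list Ccl3 stood at 12.44 CPM in actDCs against 142.1 in cDC2.

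Cytokines that act on T and NK cells were higher in actDCs for 4 of 6 genes against both classes, and lower for 1. Il15 stood at 81.46 CPM against 3.359 in cDC1 and 16.67 in cDC2. Il15ra, the receptor chain that carries IL-15 to neighbouring lymphocytes, stood at 110.9 CPM against 3.562 and 6.091. Il12a, the partner of Il12b in IL-12, was seen as 11 UMIs in 1 actDC. Il18 was the exception, at 6.134 CPM against 62.79 and 29.93, although its call against cDC2 was lost with a pseudocount of 20. Of the inflammatory cytokines 5 of 8 were higher than in cDC1, but 5 of 9 lower than in cDC2. Il1b stood at 745.9 CPM against 1602 and 2514, and only the difference from cDC2 stayed past 2-fold when folds were centred. Among 18 cytokine receptors 8 were higher and 2 lower than in cDC1, and 5 higher and 5 lower than in cDC2. The lower count against cDC2 was near the 26.3% of all genes. Il7r, a chain shared by the receptors for IL-7 and TSLP, stood at 472.1 CPM against 13.56 and 87.09, below the 785.7 CPM of T cells and the 645.2 CPM of pDCs.

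Ligands that promote and ligands that restrain T cells were both higher in actDCs. Of 10 co-stimulation genes 6 were higher than in both classes and 1 lower. Cd40, through which helper T cells license DCs, stood at 333.8 CPM against 36.52 in cDC1 and 89.2 in cDC2. Cd80 stood at 148.4 CPM against 16.88 and 56.5. Cd86, the other CD28 ligand, differed by less than 2-fold (317.1 CPM against 182.5 and 204.7). Of 13 regulatory genes 8 were higher and 2 lower than in both. Cd274 (PD-L1) stood at 293.7 CPM against 19.54 and 33.8, and Pdcd1lg2 (PD-L2) at 113.3 CPM against 4.495 and 7.967. Cd200, whose receptor restrains myeloid cells, stood at 334.7 CPM against 14.8 and 4.047. Socs2, an inhibitor of cytokine signalling, stood at 478.7 CPM against 1.049 and 25.04. Il4i1, a secreted amino acid oxidase, stood at 445.2 CPM against 48.26 in cDC2, and cDC1 held 1 UMI. The largest exception was Havcr2 (TIM-3), at 7.049 CPM against 134.6 in cDC1 and 25.17 in cDC2. Its call against cDC2 was lost with a pseudocount of 20.

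Genes of the NF-kB pathway, which couples innate and CD40 signals to DC activation, were higher in 17 of 19 cases against cDC1 and in 9 of 19 against cDC2, with none lower in either. The list medians were 1.88 and 0.72 on the log2 scale, where the medians of all genes were -0.34 and -0.36. Genes of the non-canonical branch were among those with the largest folds. Relb stood at 636.6 CPM against 33.64 in cDC1 and 55.78 in cDC2. Birc2, which controls its kinase, stood at 478.2 CPM against 33.14 and 52.35, Map3k14 (NIK), the kinase itself, at 307 CPM against 36.35 and 61.32, and Nfkb2, the partner of Relb, at 241.8 CPM against 30.65 and 52.39. Of the canonical subunits, Rela stood at 77.02 CPM against 28.56 and 44.97, which passed 2-fold against cDC1 only, and not with a pseudocount of 20, and Nfkb1 at 444.8 CPM against 134.3 and 290.7. Whether the branches differ was not tested.

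Survival genes were higher in 7 of 12 cases against both classes, and 1 was lower. The largest were granzyme-inhibitor serpins: Serpinb6b at 2090 CPM against 38.65 in cDC1 and 14.54 in cDC2, and Serpinb9 at 1129 CPM against 28.96 and 24.48. NK cells, which make granzymes, came next with 498.5 and 603.6 CPM. Cflar, an inhibitor of caspase 8 activation, stood at 284.3 CPM against 44.22 and 113.4. Bcl2a1b stood at 1373 CPM against 186 and 299.2, but it and Bcl2a1d are near-identical copies whose reads cannot be told apart with certainty. Bcl2 itself stood at 2.067 CPM, below cDC1 (23.83) and cDC2 (59.54).

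DC transcription factors were mixed. Of 20 genes seen, 9 were higher and 2 lower than in cDC1, and 8 higher and 3 lower than in cDC2. Only 4 were higher and 1 lower than in both, so some passed 2-fold over cDC1 alone and some over cDC2 alone. The list medians were 0.70 against cDC1 and 0.71 against cDC2 on the log2 scale, so the list as a whole leaned to neither. Named here are 3 lineage genes that stood nearer cDC1, and then genes apart from both. Genes past 2-fold over cDC1 alone are not named, so these 3 do not stand for the list. Irf8, needed for cDC1 development, stood at 1371 CPM against 2301 in cDC1 and 177.7 in cDC2. Id2, an inhibitor of E proteins, stood at 884.7 CPM against 1014 and 135.6, and Batf3, a cDC1 factor, at 131.7 CPM against 219.1 and 48.1. All 3 differed from cDC1 by less than 2-fold and from cDC2 by more. Stat4, which relays IL-12 signals, stood at 638.2 CPM against 5.94 in cDC1 and 35.78 in cDC2, with NK cells next (267.4 CPM). Etv3 stood at 627.1 CPM against 80.96 and 134.8, and the orphan nuclear receptor Nr4a3 at 558.5 CPM against 49.28 and 128.1.

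The lineage markers of both conventional classes were low. The summed cDC1 list stood at 268 CPM in actDCs against 3695 in cDC1, and the cDC2 list at 150.9 CPM against 2866 in cDC2. Naaa, a lysosomal amidase typical of cDC1, had 4 UMIs in actDCs and stood at 7.951 CPM against 1434 in cDC1. Cd209a, a lectin typical of cDC2, also had 4 UMIs and stood at 9.008 CPM against 748.7 in cDC2. A UMI of the cDC1 list alone was found in 49 actDCs, of the cDC2 list alone in 15, of both in 13 and of neither in 35. The split depended on Batf3 and on depth: without Batf3 the counts were 25, 20, 8 and 59, an alternative chosen after seeing the data, and at 2000 UMIs they were 29, 13, 4 and 64. Any cDC1-list UMI was found in 30.0% of thinned actDCs and in 27.2% of thinned T cells, but in 13.5% of thinned NK cells. With at least 2 such UMIs the shares were 12.7% of actDCs, 5.91% of T cells and 1.89% of NK cells. No actDC was assigned an origin.

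List medians of the class I pathway of antigen presentation were above those of all genes, and those of class II somewhat below. On the log2 scale the class I medians were 0.40 against cDC1 and 0.86 against cDC2. The class II medians were -0.70 and -0.82, where those of all genes were -0.34 and -0.36. Of the 16 MHC class I genes seen, 6 were higher and 2 lower than in cDC1, and 8 higher and 2 lower than in cDC2. H2-K1, a class I heavy chain, stood at 3234 CPM against 802.1 in cDC1 and 1206 in cDC2. B2m, the class I light chain, stood at 3840 CPM against 1023 and 1846, although its call against cDC2 was lost with summed UMIs. Psme2, a proteasome activator subunit that favours class I peptides, stood at 1515 CPM against 408.5 and 383.6. Of 13 MHC class II genes 1 was higher and 5 were lower than in both. H2-Ab1, the class II beta chain, stood at 2146 CPM against 6286 and 7145, and H2-DMa, which loads peptide on class II, at 166.7 CPM against 685.8 and 1112. Other class II chains stayed within 2-fold: H2-Aa at 5058 CPM against 7176 and 7777, and H2-Eb1 at 3542 CPM against 5750 and 6265. The class II list gene higher than in both was Lgmn, a lysosomal protease, at 298.6 CPM against 57.8 and 92.38. The mice were BALB/c and the reference genome is from C57BL/6, which carries other H2 alleles, so reads of H2 genes may be lost; both sides of each comparison share this.

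The lower class II level was not a uniform shift (a pattern chosen after seeing the data and given as a description). An H2-Ab1 UMI was found in all 351 cDC1 and in 96.9% of cDC2, but in 64 of the 112 actDCs (57.1%, 47.4 to 66.5). The median actDC held 280.4 CPM and the highest 14672 CPM. In cDC1 and cDC2 the medians were 6117 and 7355 CPM. T cells, a class that should lack the gene, had an H2-Ab1 UMI in 16.9% of cells and NK cells in 17.8%. At 2000 UMIs per cell the shares were 51.8% of actDCs, 99.4% of cDC1, 96.4% of cDC2, 16.5% of T cells and 14.9% of NK cells. Other class II genes shared the pattern to different degrees. H2-DMa was found in 43.8% of actDCs, H2-DMb1 in 16.1%, H2-DMb2 in 15.2% and Ciita, the master activator of class II genes, in 9.82% of actDCs. In the conventional classes Ciita was found in 64.4% and 65.4%. H2-Aa (93.8%), H2-Eb1 (88.4%) and Cd74, the invariant chain (99.1%), were found in most actDCs.

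Class II genes are switched on together by CIITA, which docks on factors bound to short promoter boxes called X and Y. The 250 bases before the start of H2-Aa and H2-Eb1 are shown because these genes varied most closely with H2-Ab1 between actDCs and hold both boxes. They come from RefSeq (GRCm38.p6), 5' to 3' on the gene's strand, at chr17:34287824-34288073 (minus strand) and chr17:34305617-34305866 (plus strand), and are promoter, not transcript. Capitals mark CTNGNAACT, letters of the X box, and GATTGG, letters of the Y box (CCAATC is GATTGG read on the other strand).

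H2-Aa: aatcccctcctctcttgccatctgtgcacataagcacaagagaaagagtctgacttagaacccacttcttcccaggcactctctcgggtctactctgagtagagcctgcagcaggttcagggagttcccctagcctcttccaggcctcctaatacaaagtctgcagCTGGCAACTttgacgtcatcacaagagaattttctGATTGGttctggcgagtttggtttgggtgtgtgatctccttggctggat
H2-Eb1: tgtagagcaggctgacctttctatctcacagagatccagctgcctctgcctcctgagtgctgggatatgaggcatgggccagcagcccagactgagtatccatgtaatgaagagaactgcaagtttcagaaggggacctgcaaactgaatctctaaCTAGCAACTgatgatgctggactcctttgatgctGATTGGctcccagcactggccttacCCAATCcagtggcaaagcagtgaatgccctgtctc

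In H2-Aa the boxes start 84 and 49 bases before the gene's start, with 26 bases between them, and in H2-Eb1 94 and 60 bases before, with 25 between. The letters were chosen after reading these sequences and searched on both strands. CTNGNAACT occurs in 3.47% of 32851 windows of the same length, GATTGG in 14.6% and both in 0.511%. Of the 10 class II list genes with a promoter searched, 3 held both (H2-Aa, H2-Eb1 and H2-DMb1) and 7 held GATTGG. Not every chromosome was searched, so the windows do not cover the whole genome, and H2-Ab1 and Cd74 were not among the 10. Ctss, Cst3 and Lgmn, which act on the pathway without being class II chains, were among them and held neither. In H2-DMa the match lay 199 bases before the start. A match of letters says nothing on whether a factor was bound in these cells.

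Within the actDCs, class II genes went together and Ccl5 went against them. Over the 112 cells, which share 1 library, the Spearman correlation of H2-Ab1 CPM was 0.87 with H2-Eb1, 0.81 with H2-Aa and 0.80 with Cd74. With Ccl5 it was -0.55. That value was -0.52 at 2000 UMIs per cell and -0.55 without cells holding a UMI of C1qa, Cd3e, Cd79a, Ncr1 or S100a8. It was -0.54 among actDCs with both Ccr7 and Fscn1 UMIs. All these alternatives were chosen after seeing the data. The correlation with Ccl5 was -0.08 among cDC1 and 0.03 among cDC2, where few or no cells lacked H2-Ab1.

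**Figure D3:**
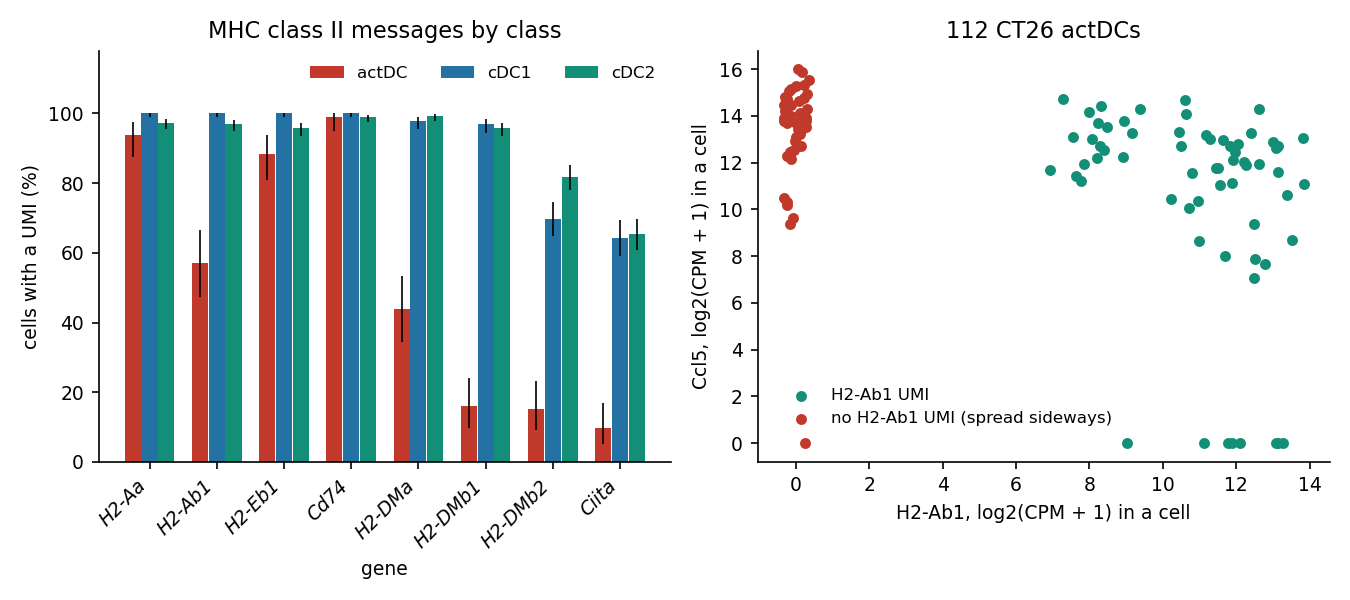
Left, share of cells (percent) with a UMI of 8 class II genes in actDC, cDC1 and cDC2, with exact binomial 95% intervals; right, Ccl5 against H2-Ab1 in each of the 112 actDCs, both as log2(CPM + 1), with the 48 cells at 0 H2-Ab1 spread sideways. H2-Ab1 is in 57.1% of actDCs, and Ccl5 is higher in the cells with less H2-Ab1 (Spearman -0.55).

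The 48 actDCs with no H2-Ab1 UMI were set beside the 64 with one. Their depth was close, with median UMIs of 4296 and 4897.5 and median gene counts of 1493 and 1509. Of 2346 genes found in at least 20% of actDCs, 102 were higher (4.35%) and 127 lower (5.41%) in the cells without. H2-Ab1 made the split, and the class II genes that vary with it followed: H2-Eb1 stood at 639.6 against 5718 CPM and Cd74 at 2382 against 11003 CPM. Ccl5 stood at 18136 CPM in the cells without and 6200 CPM in those with an H2-Ab1 UMI. Ccr7 was level between them, at 2276 and 2232 CPM, and so was Il12b, at 806 and 757.7 CPM. The cells without also held more Cd80 (243.8 against 76.78 CPM), Nr4a2, an orphan nuclear receptor (423.5 against 97.48), and Pla2g7, which breaks down platelet-activating factor (358.1 against 58.14). Synpo2, an actin-binding protein, stood at 162.5 against 17.49 CPM.

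Type I interferon genes were lower where H2-Ab1 was not found. Of 13 type I interferon genes, 8 were lower in the cells without an H2-Ab1 UMI and none was higher. The median was -1.24 on the log2 scale, where that of all 2346 genes was 0.05. Ifit2, an interferon-induced translation inhibitor, stood at 27.82 against 318.4 CPM, Irf7, which amplifies the interferon response, at 217 against 929.7, and Isg15, a ubiquitin-like modifier, at 791.8 against 1725. The interferon-gamma list did not share this: 1 of 6 genes was lower, none was higher and the median was -0.03. Cxcl9, a CXCR3 ligand induced by interferon gamma, stood at 66.86 against 720.2 CPM, but 5 of the 112 actDCs held 77% of its UMIs. Class I genes did not follow: of 15, none was higher and 1 was lower. Marker sums of other cells differed between the same 2 sets. The monocyte list stood at 408.1 against 1129 CPM, the macrophage list at 155.8 against 353.9, the cDC2 list at 24.57 against 245.6 and the NK list at 106.7 against 40.34, with an NK-list UMI in 4 and 13 cells. Their part in the differences was not tested.

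Uptake genes were mostly lower than in cDC2, and metabolic lists were less shifted. No uptake or innate sensing gene was higher than in cDC2, while 9 of 15 were lower. Against cDC1, 3 of 14 were higher and 6 lower. None of the 21 uptake genes measured was found in 20% of actDCs, so members could pass the detection filter through the other class alone. The uptake median was -2.76 against cDC2 and -0.66 against cDC1. With no detection filter these medians were -0.70 and -0.01. Of 12 hypoxia and glycolysis genes none was higher in either comparison, while 4 were lower than in cDC1 and 6 than in cDC2. The median against cDC1 was -0.46, near the -0.34 of all genes, and that against cDC2 was -1.02. Of 12 cholesterol genes 1 was higher in each comparison, and 2 were lower than in cDC1 and 4 than in cDC2. Those cholesterol counts were not far from the shares over all genes. Ldha, lactate dehydrogenase A, stood at 126.5 CPM against 639.1 and 581.2. All 11 cell cycle genes were lower than in cDC1, and most of them passed the detection filter through the cDC1 cells alone. Against cDC2 only 6 were seen, of which 1 was lower (median -0.48). Stmn1, a microtubule regulator of dividing cells, had no UMI in the actDCs, which allows up to 3 UMIs in 524398, against 368 UMIs in cDC1. In the lysosome list, 3 of 13 genes were higher and 4 lower than in cDC1, and 3 higher and 7 lower than in cDC2. The lower count against cDC1 was near the 25.8% of all genes. Cd63, a tetraspanin of late endosomes, stood at 1002 CPM against 3.981 in cDC1 and 16.34 in cDC2. Among prostaglandin and cAMP genes Ptger4, a receptor for prostaglandin E2, stood at 161.8 CPM against 36.89 and 73.27, with the call against cDC2 lost at a pseudocount of 20.

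UMIs of some genes were spread over most actDCs, and those of others came from few cells. A gene spread evenly over cells needs many cells to reach 50% of its UMIs: Ccr7 needed 27 cells, Fscn1 26 and Cxcl16 28. Ccl5 needed 18 and Ccl22 16. Il12b needed 8, Ccl17 4, Cxcl9 3 and Cxcl10 2. The 5 highest cells held 13.4% of Ccr7 UMIs, 37.6% of Il12b, 62.4% of Ccl17, 77% of Cxcl9 and 77.8% of Cxcl10. Without them the means were 558.8 CPM for Il12b, 307.9 for Ccl17, 84.22 for Cxcl9 and 61.31 for Cxcl10, so the class means of Cxcl9 and Cxcl10 rest on a handful of cells. One actDC held 280 Ccl5 UMIs, and the median cell held 33.

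**Figure D4:**
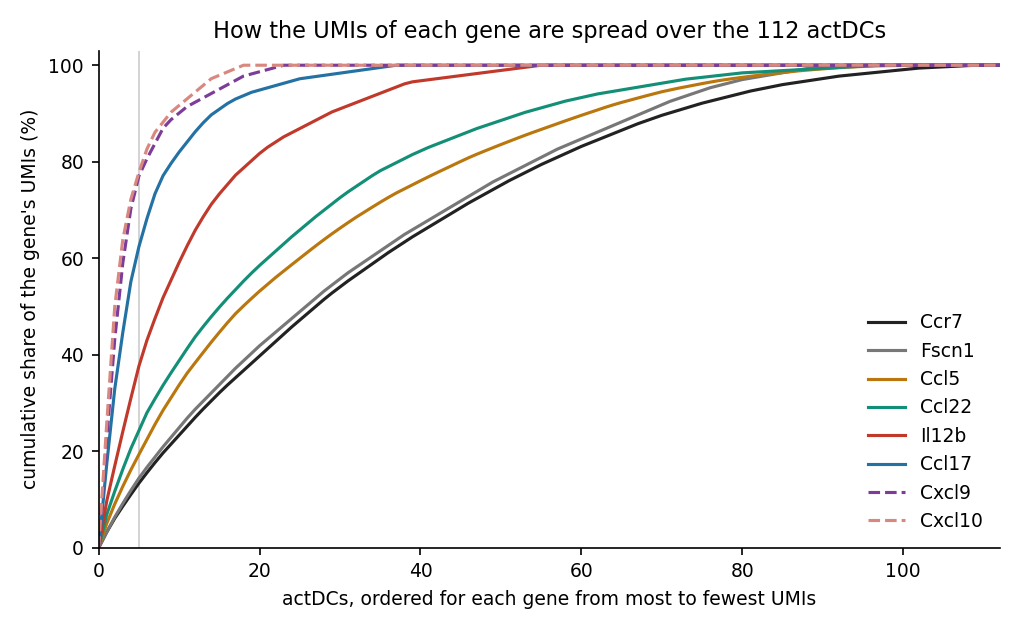
Cumulative share of each gene's UMIs (percent) against the number of actDCs taken from the highest down, for 8 genes. Cxcl10 and Cxcl9 reach 50% within 2 and 3 cells, while Ccr7 takes 27.

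Il12b and Ccl17 overlapped in part, as unrelated genes also would, so the overlap alone is no result. Both were found in 15 actDCs, Il12b alone in 40, Ccl17 alone in 22 and neither in 35. Ccl17 was found in 27.3% of actDCs with an Il12b UMI and in 38.6% of those without. After thinning to 2000 UMIs these shares were 22.7% and 33.3%. Whether the genes avoid each other was not tested. All 37 Ccl17+ cells also held Ccl22, as did 80.0% of the other actDCs. At 2000 UMIs per cell the shares were 93.8% of 32 Ccl17+ cells and 62.8% of the rest. The Ccl17+ cells stood at 3583 CPM of Ccl22 and the others at 993.6, and at 532.3 against 235.9 CPM of Cd40. The Ccl17+ cells were somewhat deeper (median 4993 against 4319 UMIs).

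The CCR7+ DCs of the other libraries came from another strain, tumour or culture and day, with no replicate. The chemistry of the libraries differed as well. Their values are therefore set beside those of CT26 without a test. In CT26, 9.96% of 8393 genes were higher in CCR7+ DCs than in the mean of cDC1 and cDC2. The shares were 12.5%, 10.4% and 11.1% in the Ptgs+/+, Ptgs-/- and NK-depleted Ptgs-/- 5555 tumours, and 6.38%, 6.91% and 6.64% in the cultures left untreated, with Ptgs+/+ and with Ptgs-/- cells. The shares of lower genes were 26.2% in CT26, 25.3%, 25.9% and 26.5% in the 5555 tumours and 4.61%, 12.0% and 10.8% in the cultures. Of the genes higher in CT26 and measured in both, 550 of 768 were also higher in Ptgs+/+ 5555 tumours (71.6% of the CT26 genes, 60.2% of theirs), 571 of 778 in Ptgs-/- and 561 of 767 in NK-depleted ones. In the untreated cultures 390 of 723 were also higher, which is 53.9% of the CT26 genes and 78.0% of the culture's. The lower genes were shared less evenly: 336 of the 2041 lower in CT26 were lower in untreated cultures, which is 16.5% of the CT26 genes and 87.3% of the culture's, and 1140 of 2013 were lower in Ptgs+/+ 5555 tumours (56.6% and 58.1%).

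Some products had a wide range across the libraries. Fscn1 stood at 1406 CPM in CT26, 1999 to 2054 in the 5555 tumours and 474.3 to 595 in the cultures, and Ccl22 between 1089 and 3332 CPM in all 7. Cxcl9 stood at 440.2 CPM in CT26 against 7.266, 73.31 and 21.81 in the Ptgs+/+, Ptgs-/- and NK-depleted 5555 tumours and at most 3.806 in the cultures. In CT26 the 5 highest cells held most of it. Isg15 stood at 1325 CPM in CT26 against 427.1, 183.9 and 97.07 in the tumours. Ccl5 stood at 11316 CPM in CT26 against 1653, 5474 and 4425 in the tumours and 3192 to 5049 in the cultures. Il1b was the reverse for 1 library, at 3169 CPM in Ptgs+/+ 5555 tumours against 745.9 in CT26. Ccl17 was seen as 2 UMIs in the 54 CCR7+ DCs of Ptgs+/+ 5555 tumours and stood at 618.1 CPM in CT26.

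The spread of H2-Ab1 between CCR7+ DCs was also seen outside CT26. An H2-Ab1 UMI was found in 77.8% of CCR7+ DCs of Ptgs+/+ 5555 tumours (54 cells), 74.1% of Ptgs-/- (58 cells) and 66.7% of NK-depleted ones (45 cells). Over the same cells the Spearman correlation of H2-Ab1 with Ccl5 was -0.51, -0.73 and -0.72. In the cultures 96.2% to 96.9% of CCR7+ DCs held an H2-Ab1 UMI, and the correlation was -0.34 untreated, -0.21 with Ptgs+/+ cells and -0.36 with Ptgs-/- cells. Their median depth was higher, between 7263.5 and 9052 UMIs.

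**Figure D5:**
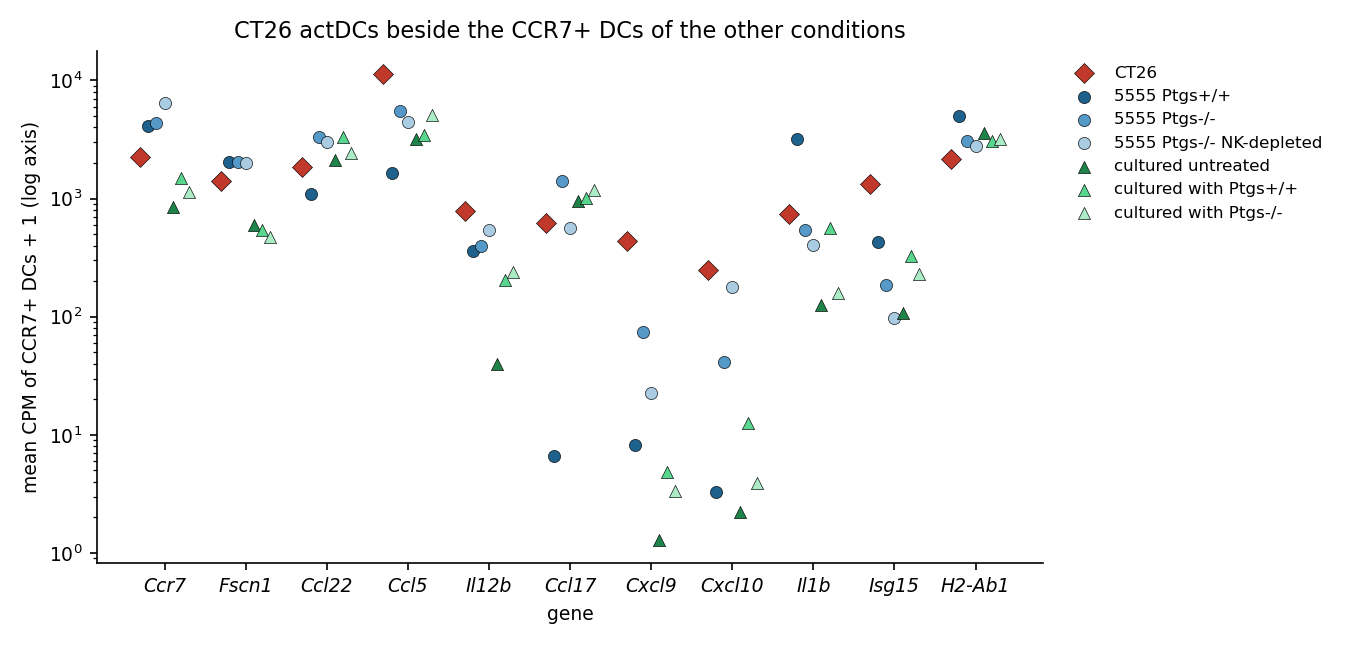
Mean level of 11 genes (CPM + 1, log axis) in the CCR7+ DCs of the 7 libraries or culture conditions. Fscn1 lies between 474.3 and 2054 CPM, while Cxcl9 runs from 0.301 CPM in untreated cultures to 440.2 CPM in CT26.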

How the data were processed

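Single CD45+ cells of 1 CT26 tumour library, 3 libraries of 5555 tumours and 1 hashtagged culture library were analysed from the deposited tables, with classes from the authors' deposited annotation, joined by cell name. Per the submitters' processing notes, Cell Ranger 3.0.2, Partek and mm10 were used. The deposited values were log2(CPM + 1) per cell by their own sums: back-transformed, each cell's CPM added up to the total that defines CPM within 0.00245%. UMIs were recovered from the smallest step of each cell, and a mean of 99.93% of CT26 values came out whole (within 0.1 UMI plus 0.01%).

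A gene entered a comparison when found in at least 5% of cells of either class. Its fold is the ratio of mean CPM plus a pseudocount of 5, called at 2-fold. Intervals are exact (Clopper-Pearson, Poisson and conditional binomial) at 95%. Thinning drew 2000 UMIs per cell. No doublet caller was run; the alternative without the 5% of cells with the most genes took no actDC. No test was possible with 1 library per group, and whether cells came from 1 or several mice is not given in the sources used here. The fold code was run on simulated data, but the limit for passing was changed after earlier limits had failed. That run is therefore no independent check of the calls.

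The members and lists were chosen with earlier results of these data known. Genes named are list members with the largest folds and the largest exception, the 15 highest over the other classes in at least 20% of actDCs, and the 10 highest and lowest against cDC1 and cDC2. Genes of the comparison within actDCs were chosen after seeing the data. No column of per-sample values was left unused (0). Some items are not reported here. Python 3.11.15, numpy 2.4.6, pandas 2.3.3, scipy 1.17.1 and matplotlib 3.10.9 were used.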

Additional observations from a re-analysis of the deposited data

Results flagged for a closer look

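Among the genes of the fixed lists, 3 were lower in CCR7+ DCs than in the mean of cDC1 and cDC2 in CT26 tumours and higher in Ptgs+/+ 5555 tumours, each past 2-fold. H2-DMb2, a chaperone of class II peptide loading, had a log2 difference of -2.68 in CT26 and 1.06 in 5555. Mgl2, a lectin of cDC2, had -2.98 and 1.15, and Mcm5, a DNA replication factor, -1.67 and 1.21. Over all 7855 genes measured in both, 24 were lower in CT26 and higher in Ptgs+/+ 5555 tumours. The 5555 values rest on 54 CCR7+ DCs, 38 cDC1 and 379 cDC2. The differences between the tumours were not tested, since each is 1 library, and strain, tumour, day and library chemistry differ with it.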

How the results depend on the processing

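Of 134 alternative values for the 18 main results, 96 stayed within 1.5 times or within the counting interval and 38 moved. The balance of higher against lower genes turned against moDC with mean log2 values, and came near even in every comparison when centred, by construction. With a pseudocount of 20, 657 genes were higher and 872 lower than in cDC1, 554 and 945 than in cDC2, 588 were higher than in moDC and 1189 lower than in the other classes. With differences of mean log2(CPM + 1), 574 were higher than in cDC1, 1766 were higher and 317 lower than in moDC (84.8% of calls higher, against 34.9%), and 1191 lower than in the other classes; moDC cells were shallow, with a median of 1514 UMIs. With no detection filter 3216 genes were lower than in moDC, and with a 10% filter 991. Relative to the median gene, 1301 were lower than in cDC1, 1306 higher and 1285 lower than in cDC2, and 1462 higher and 1406 lower than in the other classes. A 1.5-fold threshold gave 1519 higher and 3268 lower than in cDC1, 1396 and 3116 than in cDC2, 1374 and 2491 than in moDC, and 1224 and 4835 than in the other classes, and a 4-fold threshold gave 403 and 473, 316 and 471, 361 and 695, and 302 and 734. The actDC share was 1.25% of all cells and 7.13% of all DC classes. The actDCs with a UMI of the cDC1 list alone numbered 29 when thinned, 29 with at least 2 UMIs and 25 without Batf3. Of 414 alternative list medians, 368 stayed on their side of 2-fold, 30 lost it, 15 gained it and 1 reversed. Prostaglandin and cAMP genes against cDC2 had a median of -0.29 with no detection filter, where the rarest genes enter, and 1.07 with it. A reversal was counted only where the main value passed 2-fold. Smaller medians could change sign uncounted, as for growth factor receptors against cDC2 (0.95, and -0.19 with no detection filter). Of 4592 values for single listed genes, 4349 kept their call, 138 lost it, 101 gained one, 4 moved and none reversed by the same rule. Causes were not tested. The function-list genes higher than both classes numbered 61 to 83 over all settings and those lower 25 to 44.

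No paired analysis was possible because each group is 1 library and the classes compared are cells of the same library. With 112 actDCs, shares of cells carry counting intervals of up to about 10 percentage points on either side, and genes under about 3 UMIs in the class cannot be placed.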
